A study of Homo sapiens with 20 samples.

Results

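The genes described here are the enzymes of cholesterol and fatty acid synthesis that the SREBP transcription factors control, together with the SREBP genes themselves and the proteins that hold or release them. A list of 32 such genes was taken as given, and 29 of them were measured among 19775 genes in MII cells, the line MCF10-T1k, a RAS-transformed line of human mammary epithelial cells. The list was not drawn from values of these arrays, although it was proposed with results of the series known. Of the 29, 16 belong to the sterol branch, 7 to the fatty acid branch, 5 are regulators and 1, STARD4, carries sterols between membranes. FDFT1 had no probe set named here, and CYP51A1 and FADS1 were read only by probe sets that carry several gene symbols, so these 3 are not analysed here. All cells were transfected with siRNA by lipofection and kept in medium with horse serum, insulin, EGF, hydrocortisone and cholera toxin. The control received siRNA against GFP. The other groups received siRNA against APC (siAPC), against APC and TAZ (siAPC/siTAZ), against beta-catenin (sibcat), or against beta-catenin and TAZ (sibcat/siTAZ). Each of the 5 groups held 4 biological replicates, A to D, 1 array each. No group received TAZ siRNA alone, all arrays come from 1 cell line, and the labels do not say whether the replicates were separate cultures or transfections, so p-values measure the spread between these samples.

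SREBP proteins are made as precursors in the membrane of the endoplasmic reticulum, where SCAP binds them and, while sterols are plentiful, the INSIG proteins hold the complex back. When sterols fall, SCAP escorts the precursor to the Golgi, proteases free its DNA-binding part, and this enters the nucleus and raises transcription of the genes for sterol and fatty acid synthesis. SREBF2 codes for the form that acts mostly on the sterol genes and SREBF1 for forms that act more on the fatty acid genes, and INSIG1 is itself a target, so its mRNA is a common readout of the pathway. Loss of APC stabilises beta-catenin, whose gene is CTNNB1, because APC is part of the machinery that has it degraded. TAZ, the product of WWTR1, is a coactivator of transcription that Hippo kinases hold in check. The series title sets TAZ as a mediator of Wnt signalling, and the comparisons below ask what the single depletions and the addition of TAZ siRNA did to the lipid synthesis genes.

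The 5 upstream sequences below belong to genes of both branches and to regulators. INSIG1, HMGCS1, FDPS and ACSS2 are shown because they fell together with TAZ siRNA in the comparisons that follow, and SREBF2 because only its window held the sterol element searched for. Each is the 250 bases before a RefSeq gene start (GRCh38.p14), read 5′ to 3′ on the gene's own strand. Capitals mark any match, on either strand, to TCACNCCAC (a form of the sterol regulatory element), CACGTG (an E-box, which SREBP proteins can also bind), CCAAT (bound by NF-Y) or GGGCGG (bound by Sp1), the last of which can overlap itself. INSIG1 lies on the plus strand at chr7:155297628-155297877, HMGCS1 on the minus strand at chr5:43313413-43313662, FDPS on the plus strand at chr1:155308616-155308865, ACSS2 on the plus strand at chr20:34874739-34874988 and SREBF2 on the plus strand at chr22:41832855-41833104.
INSIG1: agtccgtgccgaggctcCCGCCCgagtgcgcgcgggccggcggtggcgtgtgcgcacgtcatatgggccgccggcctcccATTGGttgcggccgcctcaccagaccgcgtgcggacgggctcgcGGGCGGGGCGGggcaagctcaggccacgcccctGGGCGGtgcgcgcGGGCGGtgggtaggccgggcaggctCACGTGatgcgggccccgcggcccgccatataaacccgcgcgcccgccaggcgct
HMGCS1: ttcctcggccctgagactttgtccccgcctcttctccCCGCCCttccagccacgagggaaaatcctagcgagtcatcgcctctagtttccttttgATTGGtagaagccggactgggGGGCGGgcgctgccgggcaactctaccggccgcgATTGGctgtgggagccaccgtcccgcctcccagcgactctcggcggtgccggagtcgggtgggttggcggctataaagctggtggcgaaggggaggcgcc
FDPS: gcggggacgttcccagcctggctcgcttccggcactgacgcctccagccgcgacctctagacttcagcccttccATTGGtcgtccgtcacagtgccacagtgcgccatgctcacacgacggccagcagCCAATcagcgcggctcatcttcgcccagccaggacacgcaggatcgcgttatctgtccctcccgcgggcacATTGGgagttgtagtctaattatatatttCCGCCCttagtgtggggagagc
ACSS2: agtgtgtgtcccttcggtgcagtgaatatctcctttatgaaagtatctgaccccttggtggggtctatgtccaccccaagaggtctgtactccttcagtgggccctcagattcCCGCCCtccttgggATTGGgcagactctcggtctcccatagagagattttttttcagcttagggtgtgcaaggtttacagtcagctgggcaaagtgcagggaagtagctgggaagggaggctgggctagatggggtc
SREBF2: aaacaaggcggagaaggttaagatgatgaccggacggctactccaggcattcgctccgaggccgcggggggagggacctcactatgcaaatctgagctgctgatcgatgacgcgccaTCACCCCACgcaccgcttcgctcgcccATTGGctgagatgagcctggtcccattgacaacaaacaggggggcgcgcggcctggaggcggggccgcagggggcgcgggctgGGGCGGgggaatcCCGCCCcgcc
Of the 29 measured genes, 26 had at least 1 such window in the RefSeq table. CCAAT was found for 20 of the 26 (76.9%) against 37.0% of all 27305 genes with a window, and GGGCGG for 25 of the 26 (96.2%) against 46.2%. CACGTG was found for INSIG1, SC5D and SCAP, 11.5% of the 26 against 7.73% of all genes. TCACNCCAC was found for SREBF2 alone, 3.85% against 1.09%. A gene can have several windows, and a match in any 1 of them counts. The 26 genes had 37 windows and the 27305 genes had 35116. The 27305 also hold genes not measured here, and no set of genes with similar expression was compared. These matches describe letters in a window of 250 bases and not bound sites.

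Signals are log2 values, so a difference of 1 is a doubling, and they compare groups for the same probe set but not 1 gene with another. Array medians lay between 5.07 and 5.11, each array correlated with another of its own group at 0.9964 or more, and the number of arrays limits the precision. The siRNA targets fell as labelled: APC by 0.88 in siAPC cells, CTNNB1 by 1.33 in sibcat cells, and WWTR1 by 2.67 and 2.21 where TAZ siRNA was added to siAPC and to sibcat. CTNNB1 was a further 1.41 lower in sibcat/siTAZ than in sibcat cells, and APC a further 0.455 lower in siAPC/siTAZ than in siAPC cells. Each of these comparisons therefore holds a change in both targets. WWTR1 was already 0.41 lower in siAPC and 0.43 lower in sibcat cells than in the control. A gene was called higher or lower at an adjusted p under 0.05, from limma over all 19775 genes with Benjamini-Hochberg adjustment. Unless a sentence says otherwise, an adjusted p below comes from that fit. Results without an array, with the mean of probe sets or for a further probe set come from separate limma fits, adjusted likewise. Since an array reads the RNA of the whole culture, fewer cells with a transcript and less of it in each cell cannot be told apart.

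**Figure D1:**
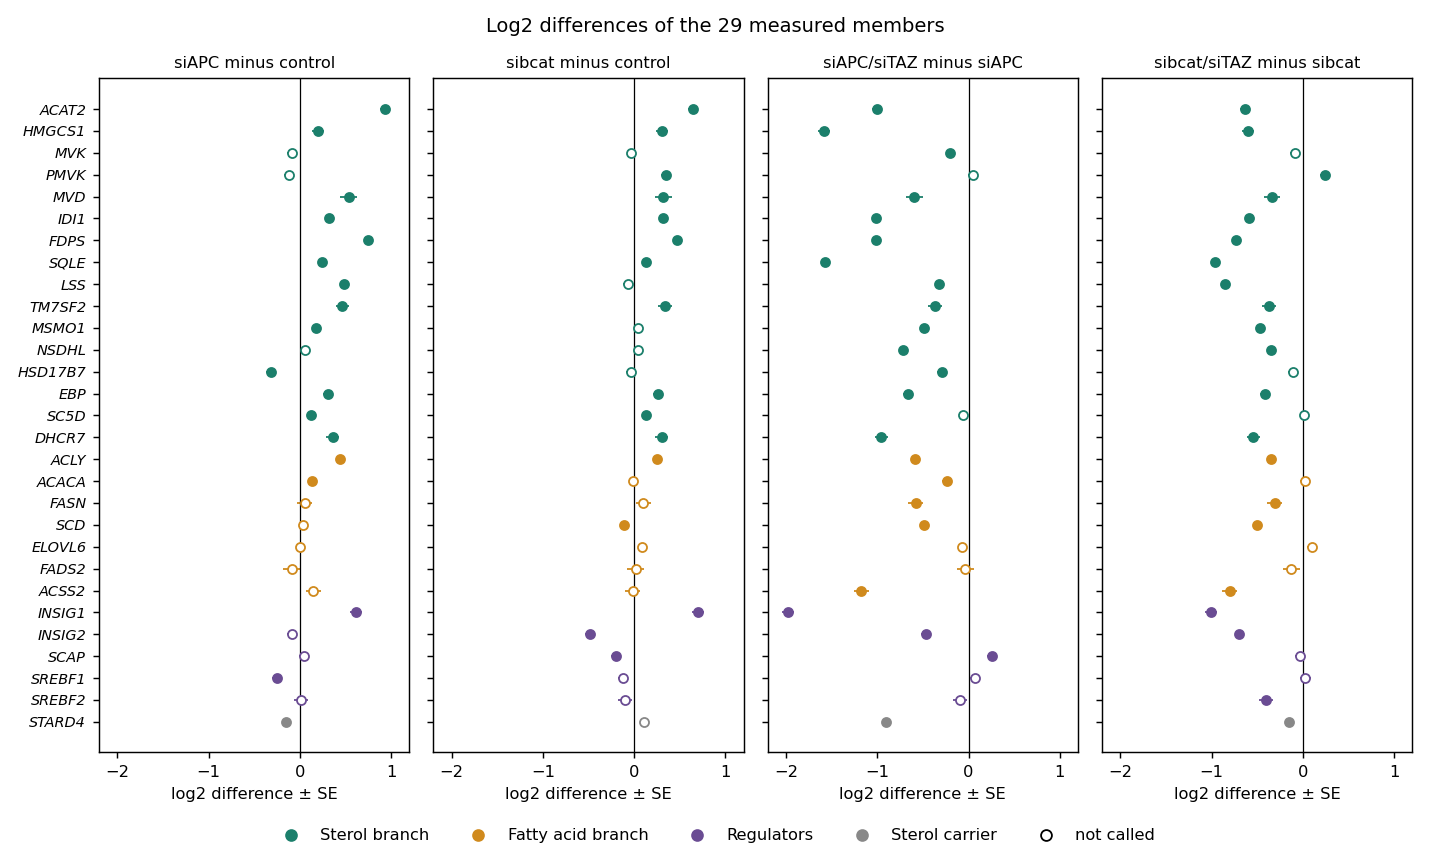
Log2 difference with its standard error (x axis) for each of the 29 measured genes (y axis), in 4 comparisons of 4 arrays against 4. Filled points were called at an adjusted p under 0.05. In the 2 left panels most green sterol genes lie to the right of 0, and in the 2 right panels most genes of every colour lie to the left.

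After APC depletion the sterol branch rose and the fatty acid branch mostly did not pass the test. Of the 16 sterol genes, 12 were called higher and 1 lower, with a median log2 difference of 0.27. Of the 7 fatty acid genes, 2 were called higher and none lower, with a median of 0.055. Over all 29 genes, 15 were called higher and 3 lower, beside a background of 21.3% of all genes called higher and 18.7% called lower. The median was 0.14 over the 29 genes and -0.002 over all genes.

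ACAT2, the cytosolic thiolase that joins acetyl-CoA units at the start of the pathway, read 9.50, 9.39, 9.39 and 9.55 in control replicates A to D. In the siAPC replicates it read 10.45, 10.39, 10.34 and 10.37. The siAPC arrays all lay above the control arrays, a difference of 0.93 ± 0.05 (log2, SE; 1.91-fold, adjusted p = 2.7e-11). FDPS, which makes farnesyl diphosphate, read 10.98, 10.92, 10.99 and 10.99 in the control and 11.71, 11.70, 11.74 and 11.70 in siAPC cells. Again the groups did not overlap, and the difference was 0.74 ± 0.04 (1.67-fold, adjusted p = 8.3e-13). INSIG1, the inhibitor that is also an SREBP target, read 10.43, 10.32, 10.20 and 10.12 in the control and 10.87, 10.84, 10.96 and 10.86 in siAPC cells. The control arrays were more spread than the siAPC arrays but lay below all of them, and INSIG1 rose by 0.615 ± 0.066 (1.53-fold, adjusted p = 2.19e-07).

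The other sterol genes that rose after siAPC did so by smaller amounts. MVD, which makes isopentenyl diphosphate, rose by 0.54 and the sterol reductase TM7SF2 by 0.47, both from control signals not far above the array median (5.52 ± 0.11 and 6.08 ± 0.09, SD, n = 4), where background compresses a fold. Lanosterol synthase LSS rose by 0.485, DHCR7, which carries out the last reduction to cholesterol, by 0.36, the isomerase IDI1 by 0.32, the sterol isomerase EBP by 0.305 and squalene epoxidase SQLE by 0.24. The demethylating oxidase MSMO1 rose by 0.18 and the sterol desaturase SC5D by 0.12. HMGCS1, which makes HMG-CoA from the product of ACAT2, rose by 0.20 on its main probe set (adjusted p = 0.0232). That call was lost without control replicate A or C or without siAPC replicate A or B (adjusted p between 0.0511 and 0.091), while the second HMGCS1 probe set rose by 0.87. HSD17B7, a keto reductase of sterol demethylation, fell by 0.32 ± 0.05 (adjusted p = 2.38e-05). The kinases MVK (-0.09) and PMVK (-0.12) and the dehydrogenase NSDHL (0.06) were not called. With the mean of all its probe sets the SC5D call was lost (0.05, adjusted p = 0.662) and MVK was called lower (-0.19, adjusted p = 0.00273). Without control replicate B, PMVK was called lower (-0.17, adjusted p = 0.0109).

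In the fatty acid branch, ACLY, which splits citrate to supply acetyl-CoA to both branches, rose by 0.445 ± 0.038 (1.36-fold, adjusted p = 8.5e-09) after siAPC, from 11.59 ± 0.05 to 12.04 ± 0.04 (SD, n = 4). The carboxylase ACACA rose by 0.14 (adjusted p = 0.0294), a call lost without control replicate A, B or C or without siAPC replicate D (adjusted p between 0.0551 and 0.0998). The second ACACA probe set fell by 0.25, and the mean over both was -0.06 (adjusted p = 0.312). Fatty acid synthase FASN (0.055), the desaturases SCD (0.03) and FADS2 (-0.09), the elongase ELOVL6 (0.002) and acetyl-CoA synthetase ACSS2 (0.15) were not called. Among the regulators only INSIG1 rose, SREBF1 fell by 0.25 ± 0.06 (adjusted p = 0.00146), and SREBF2 (0.01), SCAP (0.045) and INSIG2 (-0.09) were not called. With the mean of both SREBF1 probe sets the fall was 0.13 and was not called (adjusted p = 0.132). STARD4 fell by 0.15 (adjusted p = 0.00692). The 3' minus 5' signal of ACTB, a measure of RNA integrity, was 1.565 in siAPC cells (1.54 to 1.60) and 1.83 in the control (1.78 to 1.92). The same measure for GAPDH was 0.11 to 0.15 in siAPC cells and 0.09 to 0.10 in the control, so it went the other way. Their part in these differences was not tested.

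Depletion of beta-catenin also raised most of the sterol branch and INSIG1, and it lowered INSIG2 and SCAP. Of the 16 sterol genes, 11 were called higher and none lower, with a median of 0.28. Of the 7 fatty acid genes, 1 was called higher and 1 lower, with a median of 0.02. Over all 29 genes, 13 were called higher and 3 lower, beside 21.4% of all genes called higher and 15.7% called lower. The median was 0.10 over the 29 genes and 0 over all genes. This comparison uses the same control arrays as the one for siAPC, so a trait of those arrays would enter both.

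INSIG1 read 11.07, 11.12, 10.85 and 10.83 in sibcat replicates A to D, all above the control arrays given before. It rose by 0.70 ± 0.07 (log2, SE; 1.62-fold, adjusted p = 4.83e-08). ACAT2 read 10.16, 10.09, 10.14 and 10.02 in the same arrays, also above every control array, and rose by 0.645 ± 0.054 (1.56-fold, adjusted p = 9.43e-09). INSIG2, the second anchor of SCAP, went the other way. It read 9.16, 9.19, 9.22 and 9.23 in the control and 8.79, 8.61, 8.88 and 8.59 in sibcat cells. The groups did not overlap, and INSIG2 fell by 0.48 ± 0.05 (adjusted p = 3.28e-07).

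Of the remaining sterol genes in sibcat cells, FDPS rose by 0.47, PMVK by 0.345, TM7SF2 by 0.34, MVD and IDI1 by 0.32 each, HMGCS1 by 0.31, DHCR7 by 0.30, EBP by 0.26, and SQLE and SC5D by 0.13 each. The call for SC5D was lost with the mean of its 2 probe sets (0.11, adjusted p = 0.291). LSS differed by -0.07 (adjusted p = 0.28) on its main probe set, but its second probe set rose by 0.65 and the mean over its 3 probe sets rose by 0.23 (adjusted p = 0.00337). MSMO1 (0.04), NSDHL (0.045), HSD17B7 (-0.04) and MVK (-0.03) were not called. ACLY rose by 0.25 ± 0.04 (adjusted p = 1.99e-05). SCD fell by 0.115 (adjusted p = 0.0208), a call lost without control replicate A or B (adjusted p = 0.0563 and 0.0717) and with the mean of its probe sets (-0.07, adjusted p = 0.104). ACACA was called lower with that mean (-0.13, adjusted p = 0.0151). SCAP fell by 0.20 (adjusted p = 0.00828).

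One sibcat array, replicate D, stood apart for several of the genes. FASN read 8.90 there and 8.39 to 8.45 in the other 3 sibcat arrays, SREBF1 read 9.26 against 8.99 to 9.03, SREBF2 read 7.88 against 7.39 to 7.49, and DHCR7 read 9.30 against 8.88 to 9.04. Other genes lay lower there, such as ACAT2 at 10.02 against 10.09 to 10.16 and INSIG1 at 10.83 against 10.85 to 11.12. Of these genes only FASN and SREBF1 passed the rule, used further below, for an array that stood apart. Without replicate D, 20 of the 29 genes differed between sibcat and control in place of 16, with the share of all genes not counted. The additions were SREBF2 (-0.20, adjusted p = 0.00392), SREBF1 (-0.18, adjusted p = 0.00681), LSS (-0.12, adjusted p = 0.0417) and STARD4 (0.13, adjusted p = 0.0351). STARD4 was also called without control replicate B or sibcat replicate C (0.13 each, adjusted p = 0.0308 and 0.0251). FASN differed by 0.10 with that array and was not called (adjusted p = 0.419).

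**Figure D2:**
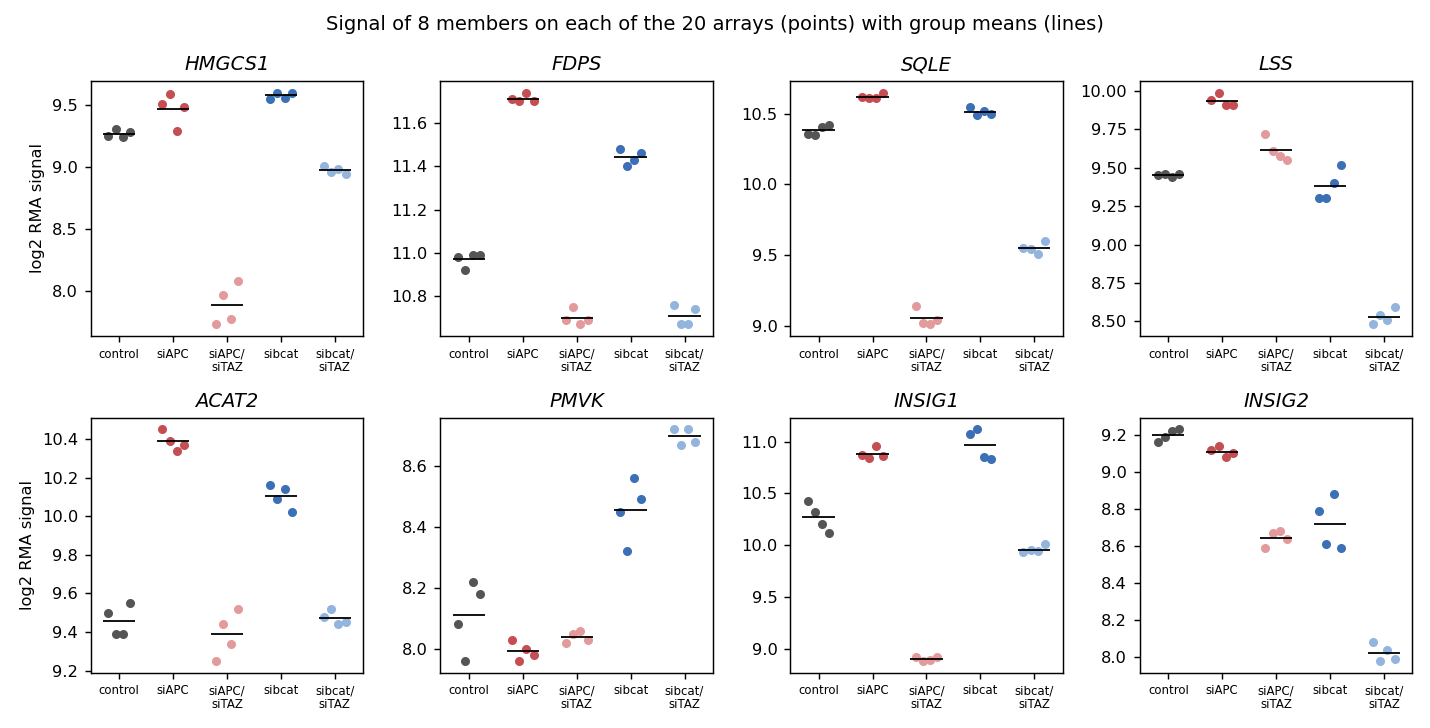
Log2 signal (y axis, a separate scale in each panel) of 8 genes on each of the 20 arrays (points) in the 5 groups (x axis), with group means as lines. INSIG1, HMGCS1, SQLE, FDPS and ACAT2 are higher in siAPC and sibcat than in the matching groups with TAZ siRNA, and PMVK is highest in sibcat/siTAZ.

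Adding TAZ siRNA to APC depletion lowered most of the genes of both branches. Of the 16 sterol genes, 14 were called lower and none higher, with a median of -0.63. Of the 7 fatty acid genes, 5 were called lower and none higher, with a median of -0.48. Over all 29 genes, 22 were called lower and 1 higher, beside a background of 22.8% of all genes called lower and 20.7% called higher. The median was -0.49 over the 29 genes and -0.025 over all genes.

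INSIG1 had the largest fall of the 29 genes here. It read 8.92, 8.88, 8.89 and 8.92 in the siAPC/siTAZ replicates A to D, against 10.84 to 10.96 in siAPC cells, a difference of -1.98 ± 0.07 (log2, SE; 3.94-fold lower, adjusted p = 4.72e-15). HMGCS1 read 9.51, 9.59, 9.29 and 9.48 in siAPC and 7.73, 7.97, 7.77 and 8.08 in siAPC/siTAZ cells. Both groups were more spread than the other groups for this gene, without overlap, and the difference was -1.58 ± 0.07 (2.99-fold lower, adjusted p = 1.54e-13). The second HMGCS1 probe set fell by 1.7. SQLE, whose step turns squalene into the first oxygenated intermediate, read 10.62, 10.61, 10.61 and 10.65 in siAPC and 9.14, 9.02, 9.01 and 9.04 in siAPC/siTAZ cells. These groups were far apart, with a difference of -1.57 ± 0.04 (2.97-fold lower, adjusted p = 1.83e-17).

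Further along the sterol branch, IDI1 fell by 1.015, FDPS by 1.01, ACAT2 by 1.00, DHCR7 by 0.95, NSDHL by 0.71 and EBP by 0.665 in siAPC/siTAZ relative to siAPC cells. The falls in MVD (0.595), MSMO1 (0.49), TM7SF2 (0.37), LSS (0.32), HSD17B7 (0.29) and MVK (0.20) were smaller. PMVK (0.05) and SC5D (-0.055) were not called, although the mean of the 2 SC5D probe sets fell by 0.20 (adjusted p = 0.0282). In the fatty acid branch ACSS2, which makes acetyl-CoA from acetate, read 8.07, 7.96, 7.84 and 8.02 in siAPC and 6.84, 6.84, 6.69 and 6.83 in siAPC/siTAZ cells. It fell by 1.17 ± 0.08 (2.25-fold lower, adjusted p = 4.29e-10), the largest fall of that branch. ACLY fell by 0.59, FASN by 0.58, SCD by 0.48 and ACACA by 0.24, while ELOVL6 (-0.07) and FADS2 (-0.04) were not called. STARD4 fell by 0.91 ± 0.04 (adjusted p = 8.17e-13).

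The regulators split. INSIG2 fell with INSIG1, by 0.465 ± 0.053 (adjusted p = 3.39e-07), and SCAP rose by 0.26 ± 0.06 (adjusted p = 0.000859). Neither SREBF1 (0.07, adjusted p = 0.37) nor SREBF2 (-0.09, adjusted p = 0.389) was called. One of the 4 IDI1 probe sets, with a mean signal of 5.39, rose by 0.535 in this comparison, while the 2 with the highest signals fell by 1.015 and 1.18.

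Adding TAZ siRNA to beta-catenin depletion lowered most of the genes of the sterol branch and 4 of the fatty acid branch. Of the 16 sterol genes, 12 were called lower and 1 higher, with a median of -0.44. Of the 7 fatty acid genes, 4 were called lower and none higher, with a median of -0.31. Over all 29 genes, 20 were called lower and 1 higher, beside 13.7% of all genes called lower and 18.0% called higher. The median was -0.37 over the 29 genes and 0.005 over all genes.

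INSIG1 read 9.93, 9.95, 9.94 and 10.01 in sibcat/siTAZ replicates A to D, all below the sibcat arrays, a difference of -1.01 ± 0.07 (log2, SE; 2.01-fold lower, adjusted p = 2.53e-10). SQLE read 10.55, 10.49, 10.52 and 10.50 in sibcat and 9.55, 9.54, 9.51 and 9.60 in sibcat/siTAZ cells. It fell by 0.965 ± 0.036 (1.95-fold lower, adjusted p = 4.16e-14), with no overlap. LSS read 9.30, 9.30, 9.40 and 9.52 in sibcat and 8.48, 8.54, 8.51 and 8.59 in sibcat/siTAZ cells. It fell by 0.85 ± 0.05 (1.80-fold lower, adjusted p = 2.95e-11), and its other probe sets fell by 0.72 and 0.66. FDPS fell by 0.73, ACAT2 by 0.63, HMGCS1 by 0.605, IDI1 by 0.585, DHCR7 by 0.54, MSMO1 by 0.47, EBP by 0.415, TM7SF2 by 0.37, NSDHL by 0.345 and MVD by 0.34.

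PMVK, the second kinase of the mevalonate pathway, was the 1 gene called higher. It read 8.45, 8.32, 8.56 and 8.49 in sibcat and 8.72, 8.67, 8.72 and 8.68 in sibcat/siTAZ cells, with no overlap, and rose by 0.24 ± 0.05 (adjusted p = 0.00115). MVK (-0.09), HSD17B7 (-0.11) and SC5D (0.015) were not called, but the mean of the MVK probe sets fell by 0.18 (adjusted p = 0.00496). In the fatty acid branch ACSS2 fell by 0.80, SCD by 0.50, ACLY by 0.35 and FASN by 0.31, and ACACA (0.02), ELOVL6 (0.10) and FADS2 (-0.125) were not called. ELOVL6 was called higher with the mean of its 3 probe sets (0.15, adjusted p = 0.00187) and without sibcat/siTAZ replicate A (0.145, adjusted p = 0.0166). Without sibcat replicate D the fall in FASN was 0.19 (adjusted p = 0.00894). INSIG2 fell by 0.695 ± 0.053 (adjusted p = 2.13e-09), SREBF2 by 0.40 ± 0.08 (adjusted p = 0.000361) and STARD4 by 0.155 (adjusted p = 0.00796). Neither of the other 2 SREBF2 probe sets was called (-0.08 and -0.20). SCAP (-0.03) and SREBF1 (0.03) were not called.

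Some markers of other cell types moved with the addition of TAZ siRNA. Of all genes, 20.7% rose and 22.8% fell with TAZ siRNA in siAPC, and 18.0% rose and 13.7% fell in sibcat cells. Of the 6 fibroblast markers, 4 rose and none fell when it was added to siAPC, and 3 rose and none fell when it was added to sibcat, with COL3A1 4.78 and 3.61 higher. COL3A1 read 5.08 in siAPC and 4.55 in sibcat cells, near or below the array medians, so that these folds are compressed. The log2 of their summed signal was 12.49 to 12.61 in the control, 11.52 to 11.59 in siAPC, 13.14 to 13.18 in siAPC/siTAZ, 12.01 to 12.09 in sibcat and 13.05 to 13.15 in sibcat/siTAZ cells. These fibroblast markers split by level. DCN (12.325) and COL1A1 (9.555) were well above the array medians in the control. With TAZ siRNA in siAPC cells DCN went from 11.32 to 12.505 and COL1A1 from 8.54 to 11.215. LUM and PDGFRA were at 2.85 and 3.93 in the control, far below the array medians. Neither of them was called with TAZ siRNA in either background. The summed signal of the 6 epithelial markers measured was 14.38 to 14.42 in the control, 14.37 to 14.41 in siAPC, 13.93 to 14.03 in siAPC/siTAZ, 14.14 to 14.29 in sibcat and 13.89 to 13.93 in sibcat/siTAZ cells. All 6 were well above the array medians in the control (9.63 for KRT14, the lowest, and 12.72 for KRT18, the highest), and KRT17 and TP63 were not analysed here. Within these sums the markers moved in opposite directions. After siAPC and after sibcat 2 of the 6 rose and 4 fell, with KRT8 0.56 and 0.34 higher. KRT14 fell by 0.595 after siAPC and fell by 0.955 after sibcat. With TAZ siRNA 1 rose and 5 fell in siAPC, and 1 rose and 4 fell in sibcat cells. KRT5 was 0.80 and 0.755 higher there, and KRT8 fell by 1.47 and 1.09. Of the 5 adipocyte markers, 2 rose and 1 fell when TAZ siRNA was added to siAPC, and 1 rose and none fell when it was added to sibcat. A single call among 5 markers is close to the shares of all genes. FABP4 rose by 3.325 and 2.30, the first from a signal of 4.545, below the array medians. ADIPOQ, a defining marker, was at 2.52 in the control and went from 2.41 to 2.60 in siAPC/siTAZ cells, where PLIN1 went from 4.89 to 4.70. After siAPC, FABP4 fell by 2.28 and LEP rose by 0.26, and after sibcat none of the 5 was called. Their summed signal was 7.51 to 7.66 in the control, 6.64 to 6.80 in siAPC, 8.18 to 8.36 in siAPC/siTAZ, 7.4 to 7.53 in sibcat and 9.14 to 9.28 in sibcat/siTAZ cells. The ACTB 3' minus 5' signal was 1.87 to 2.07 in siAPC/siTAZ and 1.98 to 2.12 in sibcat/siTAZ cells, above that of siAPC (1.54 to 1.60) and sibcat (1.76 to 1.87). That of GAPDH was 0.15 to 0.17 in siAPC/siTAZ and 0.15 to 0.21 in sibcat/siTAZ cells, against 0.11 to 0.15 in siAPC and 0.08 to 0.16 in sibcat cells. The summed signals of the 5 endothelial markers (6.56 to 7.63 over all arrays) and of the 3 leukocyte markers measured (5.52 to 6.19) were low. The leukocyte marker PTPRC was at 2.67 in the control. The endothelial sum was lower in siAPC (6.56 to 6.89) and siAPC/siTAZ cells (6.82 to 6.97) than in the control (7.36 to 7.63). It was 7.35 to 7.44 in sibcat and 7.37 to 7.50 in sibcat/siTAZ cells. After siAPC 2 endothelial markers and 1 leukocyte marker fell, and after sibcat 1 of each. With TAZ siRNA 1 endothelial marker rose in siAPC, and 1 leukocyte marker fell in sibcat cells. After the single depletions 3 of the 6 fibroblast markers fell and none rose in each case. The part of any of these changes in the differences of the lipid genes was not tested.

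The effect of TAZ siRNA could be compared between the 2 backgrounds because they share no array. The genes called lower in both numbered 19, which is 86.4% of the 22 lower with siAPC and 95.0% of the 20 lower with sibcat, and no gene was called in opposite directions. Over all genes 1852 were called lower in both (9.37%), which is 41.1% of those lower with siAPC and 68.4% of those lower with sibcat. Taken across the 29 genes, which do not count as replicates, r between the paired log2 differences was 0.786, and across all 19775 genes it was 0.722. For 21 of the 29 the value was more negative in the siAPC background. Tested as the difference between the 2 effects, 13 genes were called lower in the siAPC background and 4 higher, beside 15.5% of all genes called lower and 12.2% called higher, with a median of -0.24 over the 29 genes and -0.02 over all genes. WWTR1 itself fell 0.45 more in the siAPC background (adjusted p = 0.000118), and CTNNB1 fell further only in the sibcat background. APC changed by -0.455 with TAZ siRNA in the siAPC background and by 0.217 in the sibcat background. The part of these knockdown depths in the difference was not tested.

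HMGCS1 (-0.975 ± 0.095, log2, SE; adjusted p = 1.41e-07) and INSIG1 (-0.97 ± 0.09, adjusted p = 1.32e-07) had the largest differences between backgrounds. STARD4 followed at -0.75 ± 0.06 (adjusted p = 1.14e-08). It read 9.53, 9.49, 9.55 and 9.58 in siAPC and 8.58, 8.66, 8.66 and 8.62 in siAPC/siTAZ cells, but 9.91, 9.82, 9.72 and 9.74 in sibcat and 9.65, 9.65, 9.62 and 9.65 in sibcat/siTAZ cells. Both pairs of groups were separate, and the first lay much further apart. SQLE (-0.605), IDI1 (-0.43), DHCR7 (-0.41), ACSS2 and ACAT2 and NSDHL (-0.37 each), FDPS (-0.28), ACACA (-0.26), EBP (-0.25) and ACLY (-0.24) also fell more with siAPC. LSS went the other way, with 0.53 ± 0.07 (adjusted p = 5.85e-06), as did SREBF2 (0.31), SCAP (0.29) and INSIG2 (0.23). With the mean of all probe sets of a gene, LSS (0.17, adjusted p = 0.157) and SREBF2 (0.18, adjusted p = 0.104) lost their calls and ELOVL6 was called lower (-0.17, adjusted p = 0.0152). The calls for SREBF2 (adjusted p = 0.0398), ACSS2 (0.0228) and INSIG2 (0.0252) were lost when single arrays were left out. For ACSS2 these were siAPC A, siAPC/siTAZ C, sibcat B and sibcat/siTAZ A or D (adjusted p between 0.0506 and 0.0548). For INSIG2 these were sibcat A or C and sibcat/siTAZ B (0.0505 to 0.057). For SREBF2 these were siAPC A, C or D, siAPC/siTAZ A, C or D, and sibcat/siTAZ A or C (0.0556 to 0.0846). Without sibcat D the SREBF2 difference was 0.20 (0.0375), and that of FASN, not called with all arrays (-0.27, adjusted p = 0.105), became -0.39 (adjusted p = 0.000285). Other genes passed without single arrays: HSD17B7 (-0.22 without siAPC/siTAZ C and -0.21 without sibcat B, adjusted p = 0.0215 and 0.0268), PMVK (-0.23 without sibcat C, adjusted p = 0.0259) and ELOVL6 (-0.195 without sibcat B and -0.22 without sibcat/siTAZ A, adjusted p = 0.0455 and 0.0103).

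**Figure D3:**
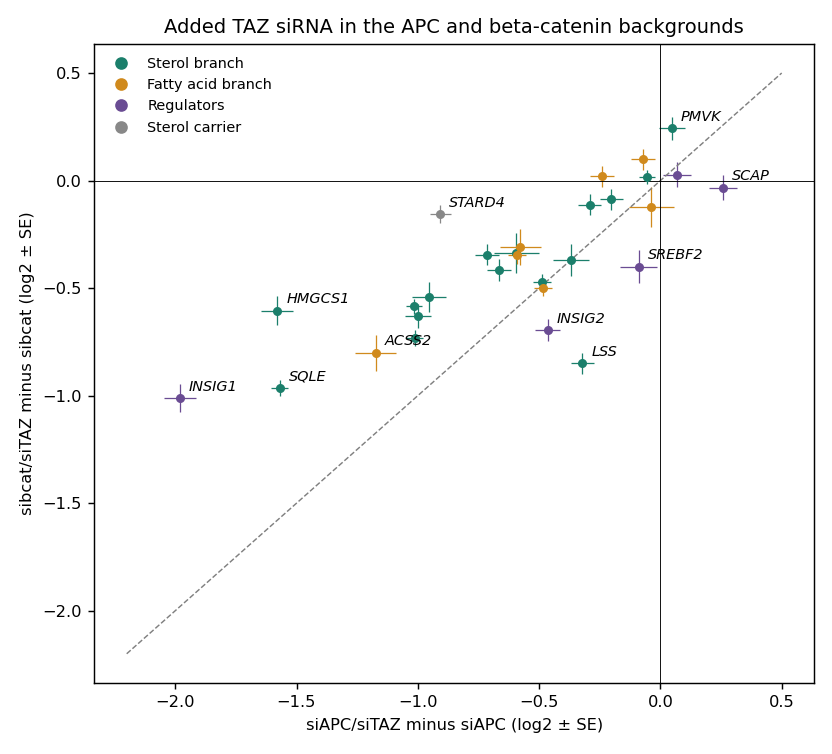
Log2 difference made by added TAZ siRNA in siAPC cells (x axis) and in sibcat cells (y axis), each with its standard error, for the 29 genes coloured by role, with the line of equal differences dashed. INSIG1, HMGCS1, SQLE and STARD4 lie left of the line, with larger falls in siAPC cells, and LSS lies below it.

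Set against the control, most of the genes were lower in both combined depletions. In siAPC/siTAZ cells 18 of the 29 genes were called lower and 2 higher, beside 24.3% of all genes called lower and 23.0% called higher, with a median of -0.29 against -0.04 over all genes. HMGCS1 was 1.38 ± 0.07 lower than in the control (log2, SE; adjusted p = 9.2e-13), INSIG1 1.36 ± 0.07 lower (adjusted p = 9.65e-13) and SQLE 1.33 ± 0.04 lower (adjusted p = 1.43e-16). The control arrays read 9.25, 9.31, 9.24 and 9.28 for HMGCS1 and 10.36, 10.35, 10.41 and 10.42 for SQLE, so that neither gene overlapped with the siAPC/siTAZ arrays given before. STARD4 (-1.06), ACSS2 (-1.025), IDI1 (-0.70), NSDHL (-0.655), HSD17B7 (-0.61), DHCR7 (-0.595), INSIG2 (-0.555) and FASN (-0.52) followed. ACAT2 (-0.07), MVD (-0.06) and TM7SF2 (0.10), which had risen with siAPC, were not called against the control. LSS was 0.16 higher (adjusted p = 0.00871) and SCAP 0.30 higher. SREBF1 was 0.18 lower (adjusted p = 0.0143), a call lost without control replicate C (adjusted p = 0.0649) and with the mean of both probe sets (-0.05, adjusted p = 0.597). With the mean of all probe sets ACLY also lost its call (-0.11, adjusted p = 0.0602), and ACACA was called lower (-0.23, adjusted p = 7.61e-05).

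In sibcat/siTAZ cells 18 of the 29 genes were called lower and 3 higher than in the control, beside 19.5% of all genes called lower and 25.4% called higher, with a median of -0.21 against -0.008 over all genes. INSIG2 read 8.08, 7.98, 8.04 and 7.99 and was 1.18 ± 0.05 lower (log2, SE; adjusted p = 4.32e-13). LSS was 0.92 ± 0.05 lower (adjusted p = 4.76e-12), from 9.45, 9.46, 9.44 and 9.46 in the control. SQLE was 0.835 ± 0.036 lower (adjusted p = 2.51e-13). All 3 genes were lower than in every control array, although 1 of the other LSS probe sets did not pass the test (-0.07) and the third fell by 0.55. ACSS2 (-0.815), SCD (-0.615), SREBF2 (-0.50) and MSMO1 (-0.43) were next. The genes called higher were PMVK (0.59), ELOVL6 (0.18) and SC5D (0.145), the last lost with the mean of its 2 probe sets (0.04, adjusted p = 0.726). INSIG1 was 0.31 lower, HMGCS1 0.30 lower, IDI1 0.27 lower and FDPS 0.26 lower. The IDI1 call was lost with the mean of its 4 probe sets (-0.065, adjusted p = 0.183). MVK was called lower with the mean of its probe sets (-0.22, adjusted p = 0.000513), without control C (-0.14, adjusted p = 0.0466) and without sibcat/siTAZ B (-0.16, adjusted p = 0.0111). The calls for ACLY (-0.095, adjusted p = 0.0497) and FASN (-0.21, adjusted p = 0.0479) stood near the threshold. ACLY lost its call without control B or D or without sibcat/siTAZ B, C or D (adjusted p between 0.089 and 0.139) and with the mean of its probe sets (-0.07, adjusted p = 0.241), and FASN without control B, C or D or without any 1 of the sibcat/siTAZ arrays (0.052 to 0.137). HSD17B7 (-0.15) lost it without control B (0.0555), and EBP (-0.16) without control D or sibcat/siTAZ C (0.051 and 0.0546).

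Between the single depletions, siAPC and sibcat cells differed in 13 of the 29 genes, 10 higher and 3 lower in siAPC, beside 16.3% of all genes called higher and 17.5% called lower. The median was 0.06 over the 29 genes and 0.003 over all genes. LSS was 0.56 ± 0.05 higher in siAPC cells (log2, SE; adjusted p = 1.63e-08), where it read 9.94, 9.99, 9.91 and 9.91, above all sibcat arrays, and its other probe sets were 0.50 and 0.43 higher. INSIG2 was 0.39 higher (adjusted p = 5.17e-06), with 9.12, 9.14, 9.08 and 9.10 in siAPC cells and no overlap. PMVK was 0.46 lower in siAPC cells (adjusted p = 6.63e-07), where it read 8.03, 7.96, 8.0 and 7.98, below all sibcat arrays. HSD17B7 (-0.28) and STARD4 (-0.26) were the other genes called lower. ACAT2 (0.285), FDPS (0.27), SCAP (0.245), ACLY (0.19), SCD (0.15) and MSMO1 (0.14) were higher in siAPC. The small differences of SQLE (0.11, adjusted p = 0.0249) and ACACA (0.145, adjusted p = 0.0253) were lost when single arrays were left out. For SQLE these were siAPC D and sibcat B or D (adjusted p between 0.0503 and 0.0718), and for ACACA siAPC D and sibcat B (0.0902 and 0.101). With the mean of all probe sets SQLE (0.04, adjusted p = 0.565) and ACACA (0.07, adjusted p = 0.192) lost their calls, and MVK (-0.145, adjusted p = 0.0197) and ELOVL6 (-0.125, adjusted p = 0.00797) were called lower. INSIG1 (-0.085, adjusted p = 0.384), IDI1 (0.003, adjusted p = 0.972) and SREBF2 (0.11, adjusted p = 0.324) were not called. Without sibcat replicate D, SREBF2 (0.22, adjusted p = 0.00269), TM7SF2 (0.20, adjusted p = 0.0198) and MVD (0.27, adjusted p = 0.0446) were called higher in siAPC cells, and MVD also without siAPC replicate D (0.28, adjusted p = 0.0267).

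Setting the branches side by side, the mean over the 16 sterol genes on each siAPC array lay 0.26 to 0.29 above the control mean, and the mean over the 7 fatty acid genes 0.07 to 0.12 above it. The sterol mean exceeded the fatty acid mean by 0.15 to 0.18 on the siAPC arrays and by 0.115 to 0.215 on the sibcat arrays, against -0.06 to 0.04 on the control arrays. With TAZ siRNA both branches lay below the control by similar amounts. In siAPC/siTAZ cells the sterol mean was 0.38 to 0.42 lower and the fatty acid mean 0.32 to 0.37 lower. In sibcat/siTAZ cells they were 0.19 to 0.23 and 0.19 to 0.27 lower. On these arrays the difference between branches ran from -0.09 to -0.03 and from -0.01 to 0.065. The fatty acid mean of sibcat replicate D, at 0.15, stood apart from the other 3 sibcat arrays, which lay between -0.003 and 0.02. These values describe the arrays and were not tested, and the branch means rest on 16 and 7 genes of unequal spread.

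**Figure D4:**
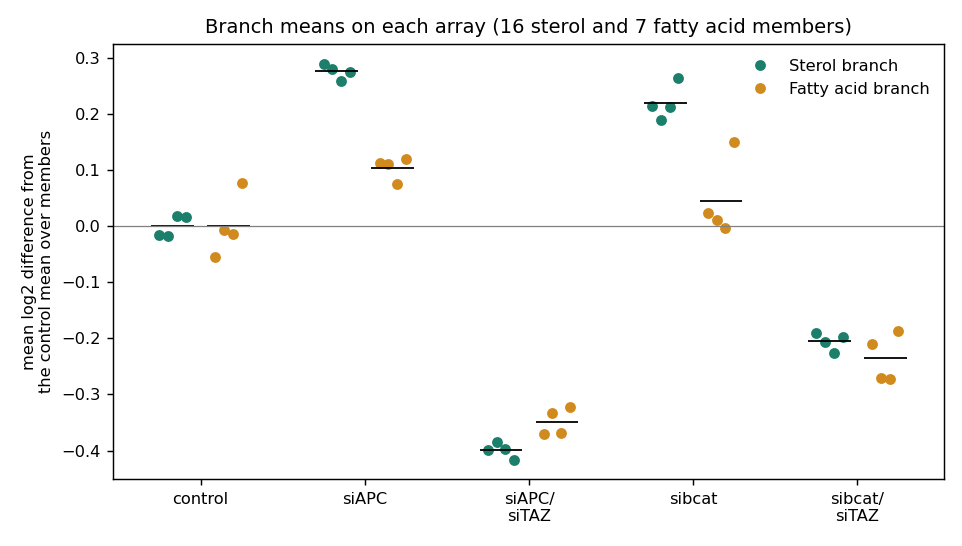
Mean log2 difference from the control mean (y axis) over the 16 sterol genes (green) and the 7 fatty acid genes (orange) on each of the 20 arrays, by group (x axis), with group means as lines. In siAPC and in sibcat cells every sterol point lies above every fatty acid point, and with TAZ siRNA both lie below 0.

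Within groups the correlations between the genes were low in the median, and no such median over other genes was taken for comparison. The correlation of deviations from the group mean over the 20 arrays had a median of 0.03 over the 120 pairs of sterol genes, 0.03 over the 21 pairs of fatty acid genes and 0.05 over the 112 pairs between branches. Single pairs ran from -0.69 to 0.73, from -0.58 to 0.81 and from -0.53 to 0.71 in the same order. The highest single values were r = 0.84 for FASN with SREBF2 and with SREBF1, of which the first was 0.41 and the second 0.68 without sibcat replicate D. ACACA and ACSS2 had r = 0.81, and 0.78 without it. INSIG1 and SCAP had the lowest, r = -0.80. The points of every correlation are the same 20 arrays, and all genes on an array share its RNA and labelling.

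Other genes of the pathway, from lists not picked for how they moved in a given comparison, were counted by class, and every comparison has the background shares and all-gene medians given above. Of the 7 measured genes for SREBP processing and turnover, 2 rose after siAPC and none fell, 4 rose and 1 fell after sibcat, and with TAZ siRNA 4 rose in each background while 2 and 0 fell. Their medians were 0.045, 0.235, 0.22 and 0.17 in these 4 comparisons. MBTPS1, the first protease that cleaves SREBP precursors, rose by 0.545 with TAZ siRNA in siAPC and by 0.225 in sibcat cells. Of the 9 measured genes for sterol traffic, storage and the LXR axis, 1 rose and 4 fell after siAPC, 4 rose and 3 fell after sibcat, and with TAZ siRNA 3 rose in each background while 3 and 2 fell, with medians of -0.09, 0.115, -0.12 and 0.13. TMEM97, a sterol-regulated membrane protein, rose by 1.12 after siAPC and 1.10 after sibcat, the largest rises over these lists. ABCG1, a sterol exporter under LXR, had the largest falls there (-1.535 and -1.29) and the largest rises with TAZ siRNA, 2.205 ± 0.073 in siAPC (adjusted p = 3.76e-15) and 0.68 ± 0.07 in sibcat cells (adjusted p = 2.93e-07). Its signals in siAPC (4.10) and sibcat cells (4.345) lay below the array medians, so that these folds are compressed.

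Of the 10 genes for isoprenoid use, 4 rose and 1 fell after siAPC, 3 rose and 3 fell after sibcat, and with TAZ siRNA 2 rose in each background while 5 and 3 fell, with medians of 0.07, -0.01, -0.23 and -0.07. Of the 19 measured genes for fatty acid supply, elongation, desaturation and activation, 10 rose and 4 fell after siAPC, 7 rose and 5 fell after sibcat, and with TAZ siRNA 2 rose and 8 fell in each background, with medians of 0.105, 0.005, -0.115 and -0.13. FADS3, a relative of the fatty acid desaturases, had the largest falls with TAZ siRNA over these lists, 1.16 ± 0.07 in siAPC (adjusted p = 1.71e-11) and 0.91 ± 0.07 in sibcat cells (adjusted p = 1.37e-09). It had risen by 0.37 after siAPC and by 0.265 after sibcat.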

How the data were processed

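The 20 samples were hybridised to the Affymetrix platform HG-U133 Plus 2.0. The authors deposited log2 signals per probe set, made with RMA (background correction, quantile normalization and summary over probes), per the submitters' processing notes, and the log2 scale was taken from their range. No RMA version is given in the sources used here. Quantile normalization gives all arrays 1 distribution, so a shift of most genes together would not be seen.

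The table held 54675 probe sets. Of these, 41091 carried 1 gene symbol in the platform's annotation and gave 19775 genes. Where a gene had several, the one brightest on average over the 20 arrays stood for it, with no filter on low signals. limma 3.58.1 in R 4.3.3 was fitted as group means to the 20 arrays together, which left 15 residual degrees of freedom. Variances were moderated by empirical Bayes, and tests were two-sided, with Benjamini-Hochberg adjustment over all genes in each of 8 comparisons. The fit was tested on simulated data. The median residual SD was 0.108.

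Genes given array by array were the 3 called with the largest differences without overlap in each comparison, and other pathway genes were named by the largest called rise and fall in their lists. The few named besides were chosen after their values were seen: ACSS2, STARD4, PMVK in sibcat/siTAZ minus sibcat and sibcat replicate D's genes array by array, MBTPS1, and the markers and probe sets cited. The members and lists were chosen with earlier results of these data known. Cell type markers were lists of epithelial, fibroblast, endothelial, leukocyte and adipocyte genes. Across groups, deviations of arrays with the same letter, A to D, had a median correlation of 0.027 (lowest -0.088, highest 0.156). Such low values cannot exclude a weak pairing, and 9 arrays were closest to their own letter. Whether the letters pair arrays was therefore not settled. No block entered the fit reported, and a run with a replicate block is described below. Upstream sequences came from RefSeq (GRCh38.p14).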

Additional observations from a re-analysis of the deposited data

Results flagged for a closer look

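In 9 of 145 groups of 4 arrays 1 array stood apart from the other 3, where chance alone gives about 1 in 20 groups. FASN read 8.90 in sibcat replicate D against 8.39 to 8.45 in the others, and SREBF1 read 9.26 in the same array against 8.99 to 9.03. MVK read 8.10 in sibcat replicate A against 7.97 to 7.99. In the control, FADS2 read 6.11 in replicate D against 5.68 to 5.75, and FDPS read 10.92 in replicate B against 10.98 to 10.99. IDI1 read 11.17 in siAPC replicate D against 11.22 to 11.23. ACSS2 read 6.69 in siAPC/siTAZ replicate C against 6.83 to 6.84. In sibcat/siTAZ, SC5D read 10.24 in replicate D against 10.21, and STARD4 read 9.62 in replicate C against 9.65. For these last genes the other arrays were equal as rounded, so any distance met the rule. Both distances were smaller than the median residual SD of 0.108.

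The effect of added TAZ siRNA differed between the siAPC and sibcat backgrounds for 17 genes in limma's test of that difference, adjusted over all genes. It was lower with siAPC for HMGCS1 (-0.975), INSIG1 (-0.97), STARD4 (-0.752), SQLE (-0.605), IDI1 (-0.43), DHCR7 (-0.412), ACSS2 (-0.373), ACAT2 (-0.37), NSDHL (-0.37), FDPS (-0.28), ACACA (-0.26), EBP (-0.25) and ACLY (-0.242). It was higher with siAPC for LSS (0.528), SREBF2 (0.31), SCAP (0.29) and INSIG2 (0.23). All values are log2. In this test 15.5% of all genes were called lower and 12.2% higher. The 4 of the 29 called higher were near the second share. The adjusted p was below 0.001 for HMGCS1, INSIG1, STARD4, SQLE, IDI1, ACAT2, NSDHL, FDPS and LSS, and it lay between 0.00172 and 0.0398 for the others.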

How the results depend on the processing

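The number of genes called among the 29 stayed within 1.5 times its value under each alternative run. Other settings gave 16 to 18 genes for siAPC minus control (18 in the fit reported), 13 to 18 for sibcat minus control (16), 22 to 24 for siAPC/siTAZ minus siAPC (23), 19 to 23 for sibcat/siTAZ minus sibcat (21), 19 to 21 and 17 to 22 for the combined depletions minus control (20 and 21), 10 to 14 for siAPC minus sibcat (13) and 13 to 21 for the difference between TAZ effects (17). Leaving out 1 array at a time gave 16 to 18, 15 to 20, 23 to 23, 21 to 22, 19 to 20, 18 to 21, 11 to 15 and 15 to 18 in the same order. The shares of all genes called in these runs were not counted. Of 149 called pairs of a gene and a comparison, 124 kept their call under every setting that tested them. MVD and FADS2 were not tested where a signal over 6 on at least 4 arrays was required. Directions turned in 2 cases, both with the mean of all probe sets of a gene: ACACA in siAPC minus control became -0.056 and LSS in sibcat minus control became 0.228. Further probe sets of called genes had the same call in 12 of 20 cases after siAPC and 10 of 19 after sibcat. With TAZ siRNA they did so in 20 of 26 cases in siAPC and 18 of 24 in sibcat cells. Opposite calls numbered 2, 0, 1 and 0 in the same order, and the rest were not called. The replicate block left 230 of 232 gene results on the same side of the threshold and made 2 more pass it, ACACA in siAPC/siTAZ minus control and PMVK in the difference between TAZ effects. It gave 18 genes for siAPC minus control. With an adjusted p under 0.01, 14 calls were lost, and with the mean of all probe sets 14, the turned ACACA call among them. The cause of these changes was not tested. The letters were closest to their own for 9 of 20 arrays. Low signals limit MVD, FADS2 and TM7SF2, which lay within about 1 log2 unit of the array medians in the control.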

Other observations

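A few further genes of lipid handling were chosen after their values were seen, and they did not move one way. MYLIP, a ubiquitin ligase and a target of the sterol-sensing LXR receptors, read 7.80 in the control (mean, n = 4), 7.31 in siAPC, 8.12 in siAPC/siTAZ, 7.52 in sibcat and 8.10 in sibcat/siTAZ cells. It fell by 0.48 after siAPC and by 0.275 after sibcat (limma adjusted p = 2.47e-05 and 0.00624), and rose by 0.805 and 0.58 with TAZ siRNA (adjusted p = 2.32e-08 and 3.75e-06). ABCA1, another such target, read 4.08 in the control, below the array medians, and was not called in any of these 4 comparisons. SLC25A1, which exports the citrate that ACLY splits, moved in the same directions as ACLY. It rose by 0.57 after siAPC and 0.54 after sibcat and fell by 0.84 and 0.64 with TAZ siRNA, all 4 called. Its sibcat arrays were more spread (8.68 to 9.20, SD 0.25) than its arrays in the other groups (SD 0.04 to 0.13). Its values without single arrays are not given here. SCD5, a desaturase, rose by 0.45 after siAPC and fell by 0.67 after sibcat, a difference of 1.12 ± 0.05 between these cells (SE, adjusted p = 2.69e-13).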
